A study of Mus musculus with 2 samples.

Results

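Amino acid transporter genes were examined in ALDH-positive and ALDH-negative 4T1 cells. They were chosen by symbol: every gene named on the array as *Slc3a1* or *Slc3a2*, or as a numbered member of the *Slc1a*, *Slc6a*, *Slc7a*, *Slc36a*, *Slc38a* or *Slc43a* families. This gave 60 genes of 24105 named genes, covered by 80 of 55681 probes. The rule used no measured value.

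4T1 is a mouse mammary carcinoma line, labelled with the strain BALB/C, and both populations came from untreated cultured cells. With ALDEFLUOR, which makes cells fluoresce where aldehyde dehydrogenase (ALDH) is active, cells were sorted into ALDH-positive cells, which the labels call cancer stem cells, and ALDH-negative cells, labelled as anti cancer stem cells. Each population was hybridised to 1 single-colour Agilent array, so no difference had a replicate spread or a test. The selection of genes therefore followed the limits in the study's methods. A gene was called higher in ALDH-positive cells where its Z-score was at least 2 and its ratio at least 1.5, and lower where its Z-score was at most -2 and its ratio at most 0.75. The Z-score set each log2 ratio, ALDH-positive over ALDH-negative, against the 250 probes on either side in mean signal.

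Amino acids do not cross the plasma membrane freely, and solute carrier proteins move them in exchange for other amino acids or together with sodium or protons. The heavy chain SLC3A2 (4F2hc, CD98) brings several SLC7 light chains to the cell surface, among them SLC7A5 (LAT1), which imports leucine and other large neutral amino acids, and SLC7A11 (xCT), which imports cystine in exchange for glutamate. Glutamine enters chiefly through SLC1A5 (ASCT2) and the SLC38 family, arginine and lysine through the cationic SLC7 carriers, and the SLC6 family includes glycine, GABA, taurine and creatine carriers. Tumour cells use these routes for protein synthesis, glutathione synthesis and the activation of mTORC1.

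Of the 60 transporter genes, 27 were measured, meaning that at least 1 probe was well above background on at least 1 array, and 26 of them were well above background on both. This was 45.0% of the transporter genes, against 61.3% of all named genes. No transporter gene was called higher and 1, *Slc6a11*, was called lower. Over all 14781 measured genes, 1.35% were called higher and 2.29% lower, so the members' counts lay near the background. The median log2 ratio of the 27 genes was 0.05, against 0.04 over all measured genes, and 17 of the 27 (63.0%) were above 0, against 59.5% of all. The median size of the log2 ratio regardless of sign was 0.15 in the transporter genes and 0.14 over all measured genes. The ratio of 18 members (66.7%) was smaller than its own error, against 65.9% of all. This error, given after each ratio below as ±, combines the errors that the scanner software gave for both signals, and it does not include the variation between cultures or sorts. Pairs of signals are given with the ALDH-negative array first.

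The 33 unmeasured genes had normalized signals between 2.55 and 12.9, and the lowest signal well above background was 13.1 on the ALDH-negative array and 12.7 on the ALDH-positive array. They were the heavy chain *Slc3a1*; the light chains *Slc7a8*, *Slc7a9*, *Slc7a10*, *Slc7a12* and *Slc7a13*; the cationic carriers and relatives *Slc7a2*, *Slc7a14* and *Slc7a15*; the glutamate transporters *Slc1a1*, *Slc1a2*, *Slc1a3* and *Slc1a6*; *Slc38a3*, *Slc38a4*, *Slc38a5*, *Slc38a8* and *Slc38a11*; *Slc36a2* and *Slc36a3*; *Slc43a1*; and 12 *Slc6* genes. Of the *Slc6* genes, *Slc6a5*, *Slc6a7*, *Slc6a14*, *Slc6a15*, *Slc6a17*, *Slc6a18* and *Slc6a19* belong to the amino acid branch, and *Slc6a2*, *Slc6a3*, *Slc6a4*, *Slc6a12* and *Slc6a13* to the monoamine, betaine and GABA carriers. Their probes were not well above background on either array, which gives no fold and is not evidence that the transcripts were absent.

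**Figure D1:**
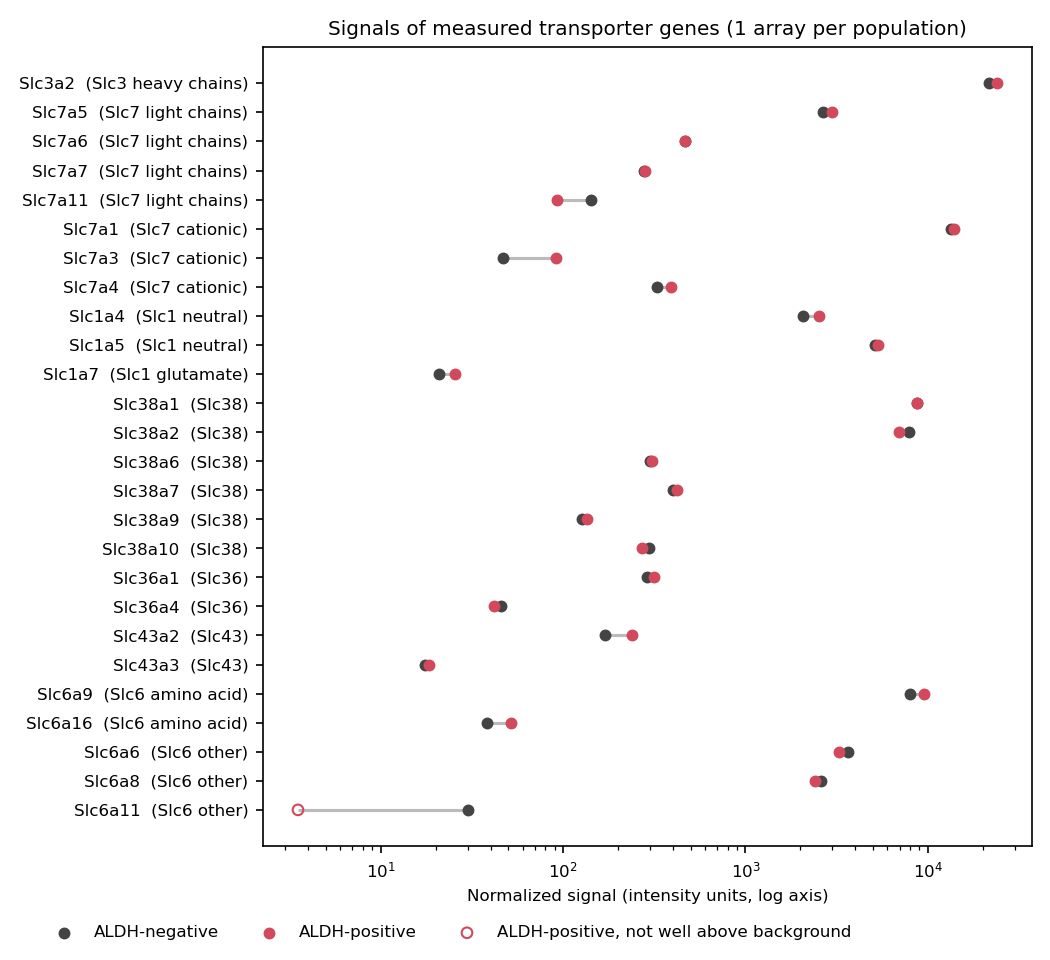
Normalized signals (intensity units, log axis) of 26 of the 27 measured transporter genes, with the ALDH-negative array in grey and the ALDH-positive array in red. Each pair of points belongs to 1 probe, pairs of different genes are not on a common scale of transcript level, and the open point of *Slc6a11* at 3.52 was not well above background.

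The probes of the genes whose ratios lay farthest from 0 are identified here by the first 30 of their 60 bases, 5′ to 3′, with the position of the whole probe on mouse assembly NCBI37 (mm9) and the strand, as the array files give them. The place of each probe within its transcript was not determined here. No bases are in capitals, since no motif is marked.
Slc6a11, chr6:114199514-114199573, plus strand: acagatccctgatgtctgtcactatagaca
Slc7a3, chrX:98274644-98274703, minus strand: ggatatgaaataatgctctgtatttcttgt
Slc7a11, chr3:50169700-50169759, minus strand: agtaatgtatcaggagctttatgtaaatgt
Slc43a2, chr11:75387219-75387278, plus strand: ggttttctcttgttttatcatgattctttt

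The heavy chain and its light chains had close signals on both arrays, apart from *Slc7a11*. *Slc3a2*, the heavy chain of the CD98 complex, had signals of 21593 (ALDH-negative) and 23981 (ALDH-positive), with a log2 ratio of 0.15 ± 0.20. *Slc7a5*, the LAT1 light chain, had signals of 2679 and 2975, also a log2 ratio of 0.15 ± 0.20. Both ratios were within their error. A second, dimmer *Slc7a5* probe in the last eighth of the array, its final rows or columns, gave 96.8 (ALDH-negative) and 97.5 (ALDH-positive), with a log2 ratio of 0.010. The y+L light chains, which exchange cationic for neutral amino acids, were also level: *Slc7a6* (y+LAT2) had signals of 465 and 463, with a log2 ratio of -0.0033 ± 0.20. *Slc7a7* (y+LAT1) had signals of 277 and 282, with a log2 ratio of 0.025 ± 0.21.

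*Slc7a11*, the cystine and glutamate exchanger xCT, had normalized signals of 141 (ALDH-negative) and 92.6 (ALDH-positive). The log2 ratio was -0.61 ± 0.21, a ratio of 0.655. The ratio was past the limit of 0.75 for lower genes, but the Z-score of -1.76 was not past -2, so *Slc7a11* was not called. It had 1 probe, printed above. Before normalization the signals were 122 and 106, with a log2 ratio of -0.20, while the median unnormalized log2 ratio over all measured probes was 0.49. *Slc7a11* and *Slc6a11* had an unnormalized signal that was smaller on the ALDH-positive array, whereas 24 of the 27 measured transporter genes had one that was larger. Under normexp and without background correction the log2 ratio of *Slc7a11* was -0.38 and -0.39, short of the ratio limit of 0.75.

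All 3 measured cationic carriers and relatives had a log2 ratio above 0, with a median of 0.25. *Slc7a1* (CAT1), the widely expressed importer of arginine and lysine, had signals of 13466 (ALDH-negative) and 13984 (ALDH-positive), with a log2 ratio of 0.05 ± 0.20. *Slc7a4*, a relative whose transport activity is not well established, had signals of 329 and 392, with a log2 ratio of 0.25 ± 0.20. *Slc7a3* (CAT3), a further cationic carrier, known chiefly from brain, had the largest log2 ratio of all measured members, 0.98 ± 0.23, from signals of 46.6 and 91.7.

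The *Slc7a3* ratio of 1.97 was past the limit of 1.5, and its Z-score of 1.80 was below the limit of 2. Among dim probes the ratios spread widely, and *Slc7a3* was called higher once probes of the last eighth of the array were left out (Z-score 2.22) or once 500 probes on either side were used (Z-score 2.03). That area held 24.3% of all measured probes but 63.7% of the measured probes called higher. The *Slc7a3* probe itself lies outside it. Under normexp background correction and with no background correction its log2 ratio was 0.50.

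**Figure D2:**
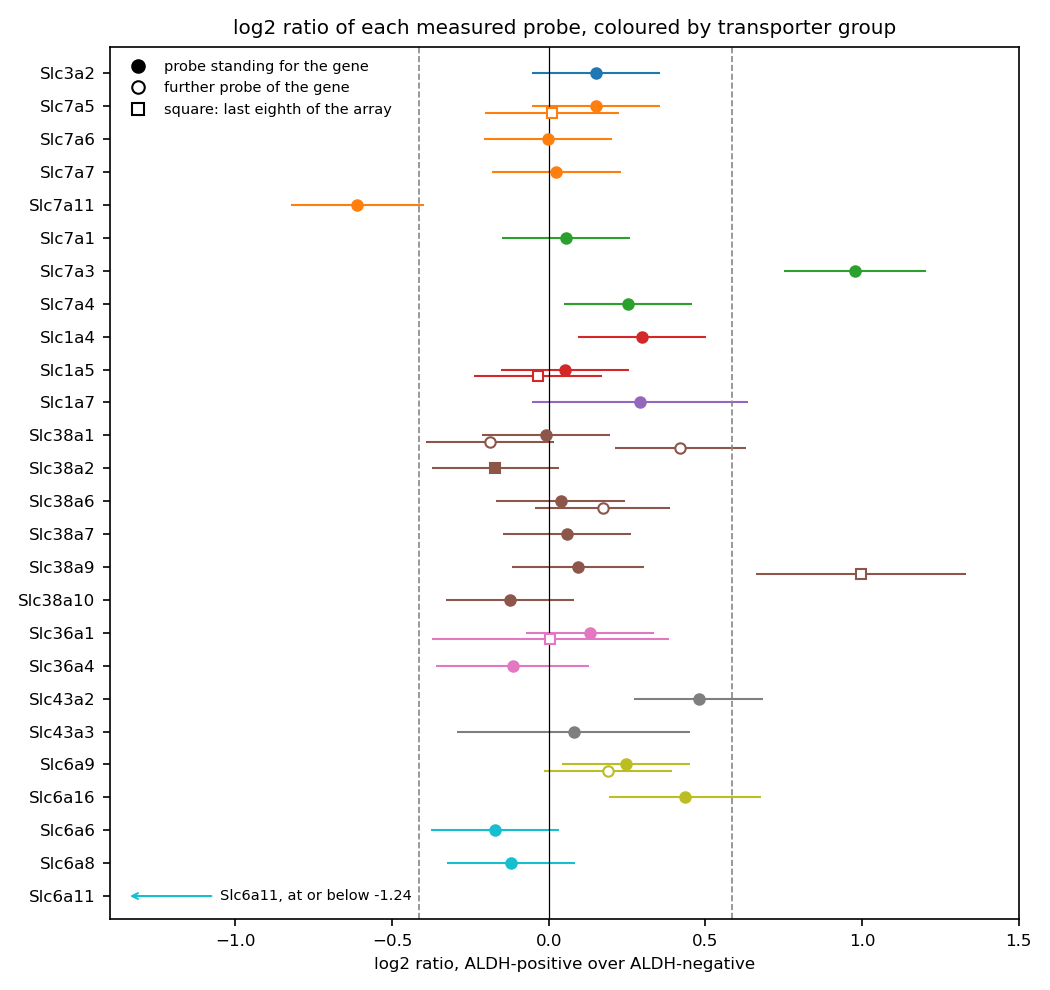
Log2 ratio, ALDH-positive over ALDH-negative, of measured probes of 26 transporter genes, with bars for the scanner software's combined error. Filled points stand for the gene, open points are further probes of it, squares lie in the last eighth of the array, and dashed lines mark the ratio limits of 0.75 and 1.5. Most bars cross 0, and *Slc6a11*, drawn as an arrow, has only a bound.

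Both neutral amino acid exchangers of the *Slc1* family were measured, and neither was called. *Slc1a5* (ASCT2), the main glutamine exchanger of many tumour cells, had signals of 5120 (ALDH-negative) and 5306 (ALDH-positive), with a log2 ratio of 0.05 ± 0.20. Its second probe, in the last eighth of the array, gave 1794 and 1752, with a log2 ratio of -0.034, so both *Slc1a5* probes lay close to 0. *Slc1a4* (ASCT1), which exchanges serine, alanine and cysteine, had signals of 2063 and 2537, with a log2 ratio of 0.30 ± 0.20. Of the 5 glutamate transporters of this family, which clear glutamate at synapses and carry it into epithelia, *Slc1a7* was the measured one. Its signals were dim, 20.9 and 25.5, with a log2 ratio of 0.29 ± 0.34.

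The *Slc38* family, which carries glutamine, alanine and asparagine, had 6 measured genes of 11, and the log2 ratios of all 6 were within their error. The family median was 0.015, with a range from -0.17 to 0.09, and 3 genes lay above 0. *Slc38a1* (SNAT1) had signals of 8733 (ALDH-negative) and 8683 (ALDH-positive) on the probe that stands for it, with a log2 ratio of -0.0082 ± 0.20. *Slc38a2* (SNAT2), which cells induce when amino acids are scarce, had signals of 7844 and 6973, with a log2 ratio of -0.17 ± 0.20, from a probe in the last eighth of the array. *Slc38a6* had signals of 299 and 307, *Slc38a7*, a glutamine exporter of lysosomes, had 402 and 419, and *Slc38a10* had 296 and 272. *Slc38a9*, the lysosomal arginine sensor that activates mTORC1 through the Rag GTPases, had 127 and 135, with a log2 ratio of 0.09 ± 0.21.

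Different probes of 1 gene did not always give the same ratio. Over 7 genes with several measured probes there were 9 pairs of probes, and the difference in log2 ratio was within the combined error in 6. The 3 pairs outside it belonged to *Slc38a1* and *Slc38a9*, whose measured probes are shown because the reading of both genes depends on which one is taken. The first line of each gene is the probe that stands for it.
Slc38a1, chr15:96406793-96406852, minus strand: tggaaacacgatcaacagttgtcttcactt
Slc38a1, chr15:96402753-96402812, minus strand: gaatctatgcagcagaggctcactttagga
Slc38a1, chr15:96405187-96405246, minus strand: tgaccacctttgtagctctgtttgtactgt
Slc38a9, chr13:113523042-113523101, plus strand: gcttctgacaagatgactgagaaatgcaga
Slc38a9, chr13:113528693-113528752, plus strand: cacactcatctctttccgctttaataataa

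The second *Slc38a1* probe had signals of 698 (ALDH-negative) and 614 (ALDH-positive), with a log2 ratio of -0.19 ± 0.20. The third, 2434 bases from the second, had 150 and 201, with a log2 ratio of 0.42 ± 0.21. These probes of *Slc38a1* thus differed by 0.61 on the log2 scale, with a combined error of 0.29, although all lie within a few kilobases on chromosome 15. The second *Slc38a9* probe, 5651 bases from the first and in the last eighth of the array, had signals of 18.1 and 36.2, with a log2 ratio of 0.997 ± 0.34. It differed from the brighter *Slc38a9* probe by 0.90, with a combined error of 0.40. With the median over all measured probes, the log2 ratio of *Slc38a9* was 0.55 in place of 0.09. A further *Slc38a9* probe was not measured.

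Of the proton-coupled *Slc36* carriers, which export small amino acids from lysosomes or take them up from the gut, *Slc36a1* and *Slc36a4* were measured. *Slc36a1* (PAT1) had signals of 287 (ALDH-negative) and 314 (ALDH-positive), with a log2 ratio of 0.13 ± 0.20. Its second, dim probe, in the last eighth of the array, gave 18.5 and 18.6, with a log2 ratio of 0.0054. *Slc36a4* (PAT4) had signals of 45.4 and 42.0, with a log2 ratio of -0.11 ± 0.24. Both genes were therefore level within their error.

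In the *Slc43* family, *Slc43a2* (LAT4), a sodium-independent carrier of branched-chain amino acids, phenylalanine and methionine, had signals of 171 (ALDH-negative) and 238 (ALDH-positive). Its log2 ratio of 0.48 ± 0.21 was larger than its error, but neither the ratio of 1.39 nor the Z-score of 1.61 reached its limit. *Slc43a3*, now known as a carrier of purine bases rather than of amino acids, had dim signals of 17.4 and 18.4, with a log2 ratio of 0.08 ± 0.37.

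The measured members of the amino acid branch of *Slc6* were *Slc6a9* and *Slc6a16*, and neither was called. *Slc6a9* (GLYT1), a glycine importer, had signals of 7987 (ALDH-negative) and 9477 (ALDH-positive), with a log2 ratio of 0.25 ± 0.20. Its second probe gave 7076 and 8063, with a log2 ratio of 0.19. These probes share 51 bases of sequence, so they are not independent readings of *Slc6a9*. *Slc6a16*, an orphan member, had signals of 38.5 and 52.0, with a log2 ratio of 0.44 ± 0.24. It was not called, with a Z-score of 0.90.

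The carriers of taurine and creatine both had log2 ratios below 0 and within their error. *Slc6a6* (TAUT), the taurine importer, had signals of 3654 (ALDH-negative) and 3248 (ALDH-positive), with a log2 ratio of -0.17 ± 0.20. *Slc6a8*, the creatine importer, had signals of 2607 and 2398, with a log2 ratio of -0.12 ± 0.20.

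*Slc6a11* (GAT3), a GABA transporter known from glia, was the sole called member. Its signal was 30.02 on the ALDH-negative array and 3.52 on the ALDH-positive array, where it was not well above background. The call rests on a log2 ratio of -3.09 ± 1.47 and a Z-score of -2.64. Both used the ALDH-positive signal as read, and the Z-score was not computed from a bound. Taking the lowest signal well above background on the ALDH-positive array, 12.7, as the floor, *Slc6a11* was at least 2.37-fold lower in ALDH-positive cells. The floor is not a sharp one, since the unmeasured *Slc3a1* had 12.9 on that array. With normexp and without background correction, the log2 ratio of *Slc6a11* was -0.52 and -0.53. With only the probes that were well above background on both arrays, *Slc6a11* had no value and 0 members were called lower.

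**Figure D3:**
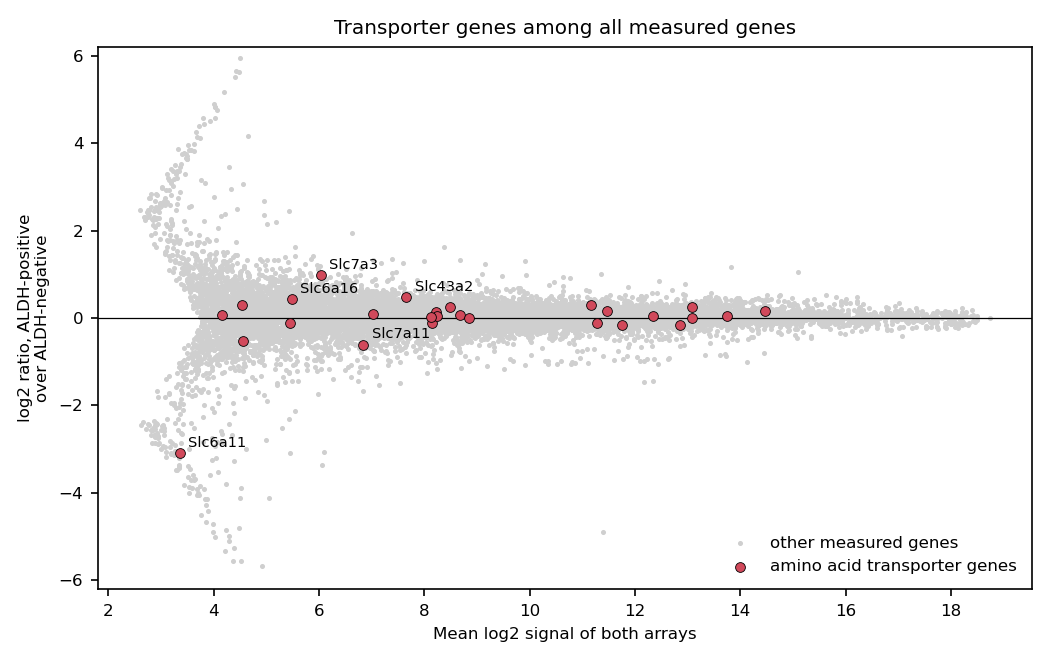
Log2 ratio, ALDH-positive over ALDH-negative, against the mean log2 signal of both arrays for all 14781 measured genes (grey) and the 27 measured transporter genes (red). The spread widens toward dim signals, where *Slc7a3*, *Slc6a16* and *Slc6a11* lie, and the plotted value of *Slc6a11* rests on a signal not above background.

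Members with signals under 100 on both arrays lay farther from 0, in median size, than those of 1000 or more. A log2 ratio of at least 0.3 in either direction was found for 6 members (22.2%), against 24.3% of all measured genes, and 4 of the 6 had signals under 100 on both arrays. The 10 members with signals of 1000 or more on both arrays, among them *Slc3a2*, *Slc7a1*, *Slc38a1*, *Slc6a9* and *Slc1a5*, had log2 ratios between -0.17 and 0.30. Their median size regardless of sign was 0.15, against 0.09 for the 6131 named genes in the same range. The 7 members under 100 on both arrays had a median size of 0.44, against 0.36 for 3606 genes. The limits of 1000 and 100 were chosen after the values were seen, and the members between them were not summarized as a group.

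Related genes from 4 lists, which are outside the rule, were set beside the transporters. From each list up to 3 genes were picked by value, called ones first and then those farthest from 0. They are therefore not typical of their list. In the order given below, the log2 ratio was within its error in 12 of 16, 23 of 30, 19 of 23 and 17 of 19 measured genes. Over all measured genes, 1.35% were called higher, 2.29% were called lower and 59.5% lay above 0. The list of other amino acid and peptide carriers had 16 measured genes of 25, with 1 called higher and 0 called lower. In this list 9 genes (56.25%) lay above 0, and the median log2 ratio was 0.11. The called gene was *Ctns*, the cystinosin gene, whose product exports cystine from lysosomes: its signals were 596 (ALDH-negative) and 943 (ALDH-positive), with a log2 ratio of 0.66 ± 0.20 and a Z-score of 2.81. *Slc15a3*, a lysosomal carrier of histidine and small peptides, had signals of 130 and 169, with a log2 ratio of 0.39 ± 0.21. *Slc25a29*, a mitochondrial carrier of basic amino acids, had 364 and 450, with a log2 ratio of 0.31 ± 0.20. Neither was called. Among the measured cystine carriers named here, the lysosomal exporter *Ctns* had a log2 ratio above 0. The plasma membrane importer *Slc7a11*, described above, had one below 0 and was not called.

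The list of amino acid sensing upstream of mTORC1, which holds the Rag GTPases, their regulators and the TSC complex, had 30 measured genes of 32 on the array. It had 0 genes called in either direction, against 1.35% called higher and 2.29% called lower over all measured genes. In this list 21 genes (70.0%) lay above 0, against 59.5% of all, and the median log2 ratio was 0.10. *Tbc1d7*, a subunit of the TSC complex, had signals of 209 (ALDH-negative) and 291 (ALDH-positive), with a log2 ratio of 0.48 ± 0.21. *Tsc2*, the GTPase-activating subunit of the same complex, had dim signals of 42.7 and 31.6 from a probe in the last eighth of the array, with a log2 ratio of -0.43 ± 0.28. *Sesn3*, a sestrin, had signals of 612 and 763, with a log2 ratio of 0.32 ± 0.20. The ratios of *Tbc1d7* and *Tsc2* lay on opposite sides of 0, and neither gene was called.

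The GCN2-ATF4 list, the response that cells mount when amino acids run short and that drives several of these transporter genes, had all 23 genes measured. None was called, against 1.35% called higher and 2.29% called lower over all measured genes. In this list 14 genes (60.9%) lay above 0, against 59.5% of all, and the median log2 ratio was 0.031. *Chac1*, a glutathione-degrading enzyme, had signals of 10123 (ALDH-negative) and 14057 (ALDH-positive), with a log2 ratio of 0.47 ± 0.20. Its Z-score of 2.35 was past the limit and its ratio of 1.39 was not. *Ddit4*, an inhibitor of mTORC1 signalling, had signals of 15169 and 18661, with a log2 ratio of 0.30 ± 0.20. *Nupr1*, a stress-induced chromatin protein, had 10451 and 12439, with a log2 ratio of 0.25 ± 0.20. The factor *Atf4* itself had a log2 ratio of 0.15, and its target *Asns*, asparagine synthetase, one of -0.038.

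Enzymes of glutamine and cystine use were measured for 19 of 20 genes. Of these 0 were called, against 1.35% called higher and 2.29% called lower over all measured genes. In this list 13 genes (68.4%) lay above 0, against 59.5% of all, and the median log2 ratio was 0.07. *Arg2*, mitochondrial arginase, had signals of 93.0 (ALDH-negative) and 116 (ALDH-positive), with a log2 ratio of 0.32 ± 0.21. *Gpt2*, mitochondrial alanine transaminase, had 1171 and 1397, with a log2 ratio of 0.25 ± 0.20. *Bcat1*, the cytosolic branched-chain transaminase, had 12.1, not well above background, and 15.8, and was not called.

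**Figure D4:**
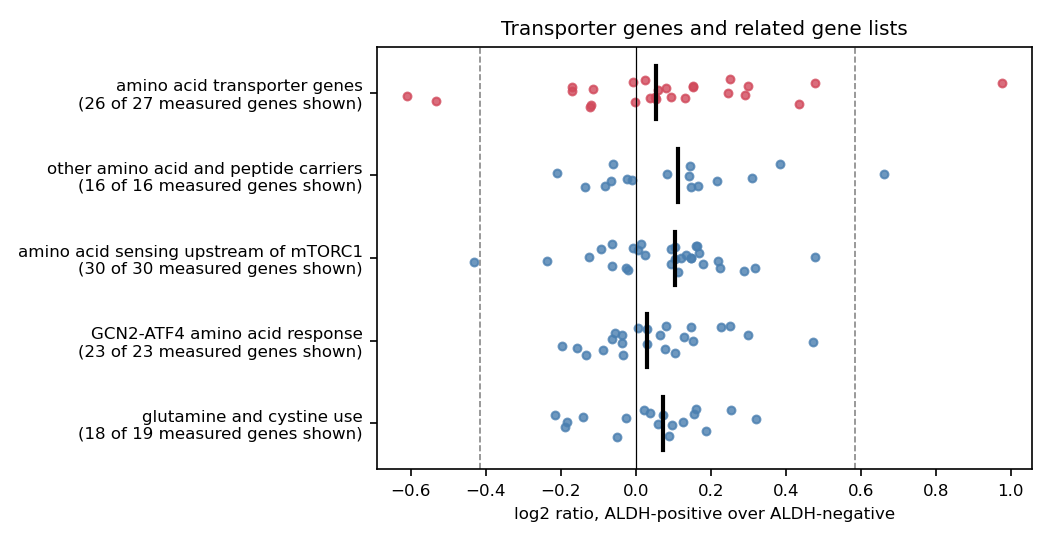
Log2 ratios, ALDH-positive over ALDH-negative, of the genes well above background on both arrays in the transporter set and the 4 related lists, with a thick bar at the median of all measured genes of each list and dashed lines at the ratio limits of 0.75 and 1.5. The medians lie between 0.031 and 0.11.

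Markers of the sorted cells and of other cell types were read on the same arrays. All 5 epithelial markers (*Epcam*, *Krt8*, *Krt18*, *Krt7* and *Cdh1*) were measured, with log2 ratios from 0.15 to 0.40. Of these 4 were within their error, 0 were called, and the highest, *Epcam*, came from a probe in the last eighth of the array. Their summed signal was 335996 (ALDH-negative) and 377588 (ALDH-positive), most of it from *Krt8* and *Krt18*. Of 5 leukocyte markers on the array, 3 were measured, the defining *Ptprc* was not above background, and the summed signal was 9189 and 5228. Most of this signal came from *Itgam* (7301 and 3795), which was called lower (log2 ratio -0.94). Of 4 endothelial markers 2 were measured, *Cdh5* and *Tek* were not above background, and the sum was 7319 and 5426. Nearly all of it came from *Kdr* (7292 and 5394), which was called lower (log2 ratio -0.43), while *Pecam1* had 27.0 and 31.3 (log2 ratio 0.21). Of 5 fibroblast markers 3 were measured, *Dcn* and *Lum* were not above background, the sum was 203 and 189, and 0 were called. The part of these differences in the *Slc6a11* result was not tested, and fewer cells that express a gene cannot be told apart from less of its RNA per cell in such bulk samples.

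**Figure D5:**
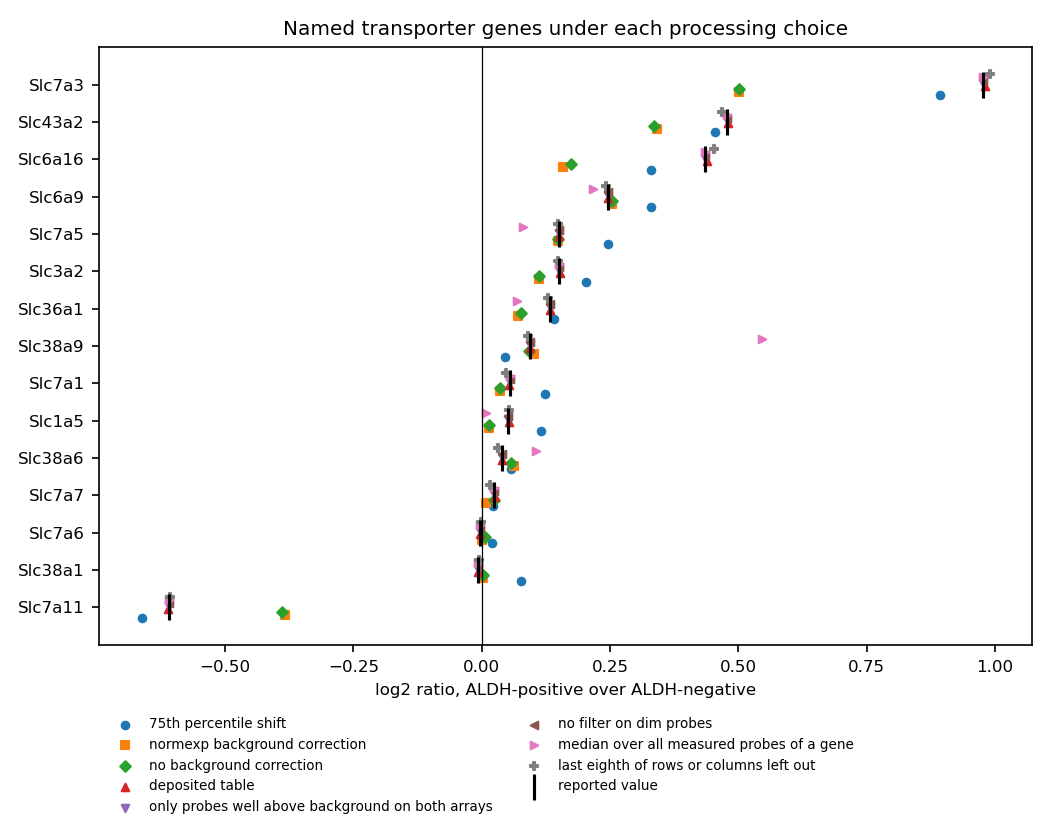
Log2 ratio, ALDH-positive over ALDH-negative, of named transporter genes as reported (black bar) and under each alternative way of processing the arrays (coloured marks). The called member *Slc6a11*, whose log2 ratio moved from -3.09 to -0.52 with normexp, is not drawn. *Slc7a3*, *Slc6a16* and *Slc7a11* move toward 0 under normexp and without background correction, *Slc38a9* moves up with the median over its probes, and only *Slc38a1* and *Slc7a6*, both near 0, have values on both sides of 0.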

How the data were processed

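Total RNA of 1 ALDH-negative and 1 ALDH-positive population was labelled with Cy3 and hybridised by the authors to single-colour Agilent mouse arrays. For RNA isolation, the labels name the ReliaPrep system and the study's methods the RNeasy kit. The deposited scanner files hold spot intensity values from Agilent Feature Extraction (9.5.1.1 in the submitters' processing notes, 10.7.1.1 in the file headers), background-subtracted by the software, for 62976 spots per array. The authors' deposited table holds quantile-normalized intensity values and served as an alternative.

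Control spots and population-outlier spots (135 and 116, none of a transporter probe) were left out. The log2 processed signals, floored at 1, were averaged over repeated spots and quantile-normalized over both arrays. This removed a median shift of 0.49 (log2) between the arrays, so all differences are relative to it. Of 55681 probes, 28585 were measured. The measured probe with the highest mean signal stood for its gene. For a gene below background on 1 array, the fold is a bound. Of the 80 transporter probes, 75 matched RefSeq accessions of a GRCm38.p6 gene table and 0 of these had another symbol. Probe positions were taken from the array files (NCBI37). No spot was saturated, and probes printed 10 times varied within an array by a median SD of 0.058 and 0.049 (log2), which covers spot error only. The number of arrays limits the precision.

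The study's methods do not define the Z-score, and the form used here is given with the results. With 1 array per population, no test was made and no p-value is given. The members were taken by the symbol rule, and their groups, the 4 related lists and the marker lists were chosen by known function. These choices were made with earlier results of these data known. Genes named were the called members, members with a log2 ratio of at least 0.3 in size, and *Slc3a2* and its measured light chains. The 3 brightest members and members with several measured probes were also named. From each related list up to 3 genes were named, called ones first and then those farthest from 0. The remaining measured members are named so that every member is accounted for, and *Atf4* and *Asns* were added after their values were seen. The 12 alternatives were a 75th percentile shift, normexp (offset 50) or no background correction, the deposited table, other filters on dim probes, the median over the probes of a gene, leaving out the last eighth of the array, Z-scores over 100 or 500 probes on either side or over all probes, and a ratio limit of 1.5 both ways. The values of 1 measured transporter gene and of 1 marker are counted in the totals and not reported here. R 4.3.3 with limma 3.58.1 and Python 3.11.15 with numpy 2.4.6, pandas 2.3.3 and matplotlib 3.10.9 were used.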

Additional observations from a re-analysis of the deposited data

How the results depend on the processing

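No transporter gene was called higher, except under 2 alternatives with 1 gene each, *Slc7a3*: when probes in the last eighth of rows or columns were left out, the count was 1, and with Z-scores over 500 probes on either side it was 1. The count of genes called lower was 1, *Slc6a11*, under every alternative but 1: with only probes well above background on both arrays it was 0. The median log2 ratio of the measured members, 0.05, lay between 0.023 (no background correction) and 0.08 (75th percentile shift) under the alternatives. Of 135 alternative values of the 17 named members, 9 of genes that were not called moved by more than the error of the reported value. Among these, with normexp and without background correction, *Slc7a3* had 0.50 under both, *Slc7a11* had -0.38 and -0.39, and *Slc6a16* 0.16 and 0.17, and *Slc38a9* had 0.55 with the median over its probes. The causes were not tested. The sign was kept by 15 of the 17, and the exceptions *Slc38a1* and *Slc7a6* lay near 0. The log2 ratio of *Slc6a11* from the signals as read, which is no bound, moved by more than its error of 1.47. It went from -3.09 to -0.52 with normexp and -0.53 without background correction, and the gene was called lower under both. No paired analysis was possible because each population had a single array. Low signal over background limits most of what can be said of the 33 unmeasured genes and of *Slc7a3*, *Slc6a11* and *Slc6a16*.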

Other observations

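A few carriers of the same families lay outside the rule, because their symbols on the array end in a letter or do not name the family. *Slc6a20a*, a proline and imino acid carrier, had a signal of 64.2 on the ALDH-negative array and 63.2 on the ALDH-positive array, with a log2 ratio of -0.022 ± 0.23. *Slc6a20b*, its near copy, and the probe that the array names *1700039E15Rik* and RefSeq *Slc6a21* were not well above background on either array.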
